A study of Mus musculus with 23 samples.

Results

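Male germ cells entering meiosis copy their DNA in pre-leptotene and then, in leptotene and zygotene, break it, lay down the chromosome axes and begin to pair the homologous chromosomes. The RNA of these early stages is compared here between sorted leptotene/zygotene cells (3 arrays) and sorted pre-leptotene cells (3 arrays) of wild-type mice, so 6 of the 23 arrays of the series carry the comparison, chosen by their titles and without regard to any measured value. All 20 wild-type arrays came from testes of C57BL6xDBA2J F1 males aged 10 to 16 weeks, sorted after staining the DNA with a Hoechst dye, and the replicates were described as biological. The other wild-type fractions were spermatogonia (4 arrays), early pachytene (1), mid-pachytene (2), late pachytene (1), diplotene (2) and round spermatids (4). Spo11-/- males of the same age, which lack the enzyme that makes the meiotic breaks, gave 1 array each of spermatogonia, pre-leptotene and leptotene/zygotene, from cells pooled over several mice; their strain background was not given. A sorted fraction is an enrichment by its staining, and in such a sample fewer cells of a type and less RNA per cell cannot be told apart.

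Spermatogenesis is known for making many transcripts well before the cell uses them. Genes for the sperm tail, the acrosome and sperm-specific energy enzymes come on in pachytene spermatocytes under regulators that include MYBL1 (A-MYB) and the RFX factors. Genes of break formation, axis assembly and strand exchange are already transcribed when cells enter meiosis.

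Each value below is a level on the log2(intensity + 1) scale, or a difference of such levels, leptotene/zygotene minus pre-leptotene. Of 18193 genes named on the arrays, 13087 passed the filter on low values and were tested with limma. A gene was called when its adjusted p was under 0.05 and its change was at least 1 in either direction. A level under 4 was taken as not above background. Where all 3 arrays of a fraction lay under 4, the change is also given as a bound against 4, because the dim side was not measured. The 6 arrays were alike in brightness: their median intensities were 11.15 to 11.78, and 45.5% to 46.8% of probe sets reached log2 4.

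The leptotene/zygotene fraction held more RNA of 397 genes than the pre-leptotene fraction, 3.03% of the genes tested, and less of 10 genes, 0.0764%. The median rise was 2.33 and the largest was 4.34, for Cers3, a ceramide synthase. In 394 of the 397 all 3 leptotene/zygotene arrays lay above all 3 pre-leptotene arrays; that separation alone was found in 13.1% of all genes tested. In 45 of them the pre-leptotene arrays all lay under 4. Of the 397 genes 84 were in one or more of the 41 gene lists used below and 313 were in none. Counts at an unadjusted p under 0.05 are given for many lists below. Over all genes tested limma gave such a p to 1612 of 13087. The calls ended at a crowded edge: Fam170a, just inside, had an adjusted p of 0.0499, and Spats1, just outside, 0.0501.

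The number of calls rested on particular arrays. The count of higher genes was 21 without pre-leptotene replicate 1. Without pre-leptotene replicate 3 it was 61, and without leptotene/zygotene replicate 3 it was 32. It was 243 without leptotene/zygotene replicate 2, 612 without leptotene/zygotene replicate 1 and 461 without pre-leptotene replicate 2. In each of these fits the fitted change of all 397 genes stayed above 0. For the 394 genes whose groups did not overlap, leaving out 1 array could not give any other sign. Of the 397, 16 kept their call in all 6. Leptotene/zygotene replicate 3 was the highest of its group in 356 of the 397 genes, against 36.2% of all genes tested, and pre-leptotene replicate 1 was the lowest of its group in 273, against 32.5%. With the replicate number as a block over the 18 wild-type arrays of fractions with replicates, an alternative chosen after seeing the data, 607 genes were higher and 23 lower. With the block on the 6 arrays alone limma called 0 genes, with 2708 at an unadjusted p under 0.05. The 6 arrays alone without a block gave 0 calls by limma too, with 2021 at an unadjusted p under 0.05.

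**Figure D1:**
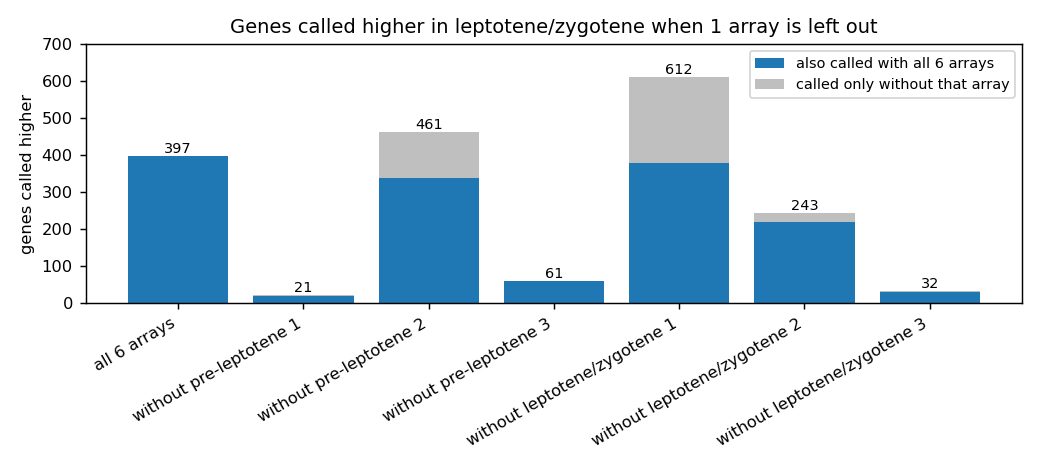
Number of genes called higher in leptotene/zygotene (y axis) with all 6 arrays and with each array left out in turn (x axis); blue marks genes that were also called with all 6 arrays, grey the others. The count is 397 with all arrays, and it falls to 21, 61 and 32 without pre-leptotene replicate 1, pre-leptotene replicate 3 and leptotene/zygotene replicate 3.

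Nearly all of the 397 genes had their highest level in a later fraction: 4 of them, Akr1cl, Bin1, Cyp17a1 and Nptx1, had their highest mean in leptotene/zygotene. Their median level was 4.76, 6.04 and 5.37 on the pre-leptotene arrays and 7.0, 7.42 and 8.73 on the leptotene/zygotene arrays. It then stood at 9.63 in early pachytene, at 10.15 and 10.39 in mid-pachytene, at 11.17 in late pachytene, at 11.35 and 11.48 in diplotene, and between 11.21 and 11.48 in round spermatids. The leptotene/zygotene levels were below every pachytene level. They were also above every pre-leptotene level, which follows from how the 397 genes were selected. Later spermatocytes within the leptotene/zygotene fraction and a rise within its own cells cannot be told apart here, and the part of each was not tested. The wild-type spermatogonia, collected from cells before meiosis, did not have the lowest levels: they stood at 5.90, 6.95, 5.49 and 6.57. Of the 397 genes 375 had a higher mean in spermatogonia than in pre-leptotene. The 397 were selected for lower levels on these same pre-leptotene arrays than in leptotene/zygotene, which favours a higher mean in any other fraction. The part of this selection in the count of 375 was not tested.

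When each tested gene was sorted by the wild-type fraction, other than these 2, in which its mean was highest, the rises fell in the late fractions. Of 1175 genes highest in diplotene 132 rose (11.2%), of 3435 highest in round spermatids 175 (5.09%), and of 2060 highest in late pachytene 79 (3.83%). Of 659 highest in mid-pachytene 9 rose (1.37%) and of 648 highest in early pachytene 0, where limma gave 13 an unadjusted p under 0.05 with a higher level. Of 5110 genes highest in spermatogonia 2 rose (0.0391%), Bin1 and Nptx1, while 9 of the 10 lower genes were in that class. None of the arrays of these fractions enters the difference compared, but they share in its estimate of the spread and in the filter. A gene could pass the filter through its level in these fractions alone, and the part of this in the shares was not tested.

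**Figure D2:**
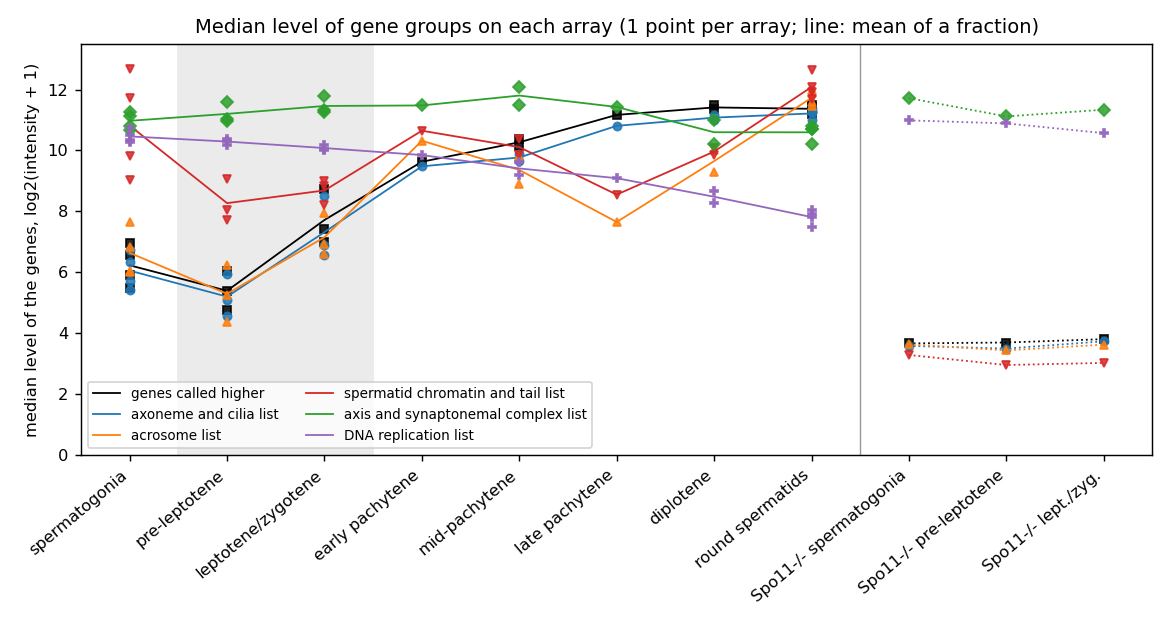
Median level of the genes of 6 groups, log2(intensity + 1) (y axis), on each array by fraction (x axis; 1 point per array, lines join the fraction means, the grey band marks the fractions compared, Spo11-/- arrays at right). The genes called higher and the axoneme list climb from about pre-leptotene to diplotene, the spermatid chromatin and tail list is already at 7.70 to 9.07 in pre-leptotene, and the axis list lies between 10.98 and 11.79 in both fractions compared.

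Genes of the axoneme, the microtubule core that moves cilia and the sperm tail, made up the largest group of rises. Of 111 names on the list, 96 were on the arrays and 92 were tested; 45 of the 92 rose (48.9%, against 3.03% of all genes tested), 0 fell, and 67 had all leptotene/zygotene arrays above all pre-leptotene arrays, against 13.1%. The median change over the 92 was 1.96, against 0.02 over all genes tested, and 89 of 92 changes were above 0. Those called rose by 1.10 to 3.93. Cfap47, Dnah5, Dnah17 and Rsph4a were on the arrays but did not pass the filter. The count of rises in this list was 3 without pre-leptotene replicate 1. Without pre-leptotene replicate 3 it was 7, and without leptotene/zygotene replicate 3 it was 3; without leptotene/zygotene replicate 2 it was 32. Of the 45, 43 were highest on leptotene/zygotene replicate 3.

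Cfap54, a protein of the central pair of microtubules, stood at 2.63, 3.54 and 3.51 in pre-leptotene and at 6.01, 6.22 and 6.76 in leptotene/zygotene. The fitted rise was 3.10 ± 0.34 (SE, n = 3 per fraction, limma adjusted p = 0.000846), or at least 2.33 against the background level. Here and below the SE is that of the fit, with the spread pooled over the wild-type fractions with replicates. The call of Cfap54 held without any 1 of the 6 arrays. Dnah7a, the heavy chain of an inner-arm dynein motor, behaved alike: 2.78, 3.52 and 2.99 became 5.82, 5.84 and 5.47, a rise of 2.61 ± 0.36 (adjusted p = 0.00569), or at least 1.71. It also kept its call in all 6 fits without 1 array. By mid-pachytene the mean of Cfap54 was 9.85 and that of Dnah7a 9.19.

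Cfap65, needed for the sperm tail, read 3.82, 6.46 and 5.05 before and 7.68, 8.69 and 9.63 after, a rise of 3.55 ± 0.57 (adjusted p = 0.00901). Cfap52 went from 3.99, 5.0 and 4.95 to 7.34, 7.41 and 9.36, a rise of 3.39 ± 0.55 (adjusted p = 0.00901). In neither gene did the groups overlap, and in both the third leptotene/zygotene array was the highest. Armc3 rose by 2.95 ± 0.51 and Ak7, an adenylate kinase of motile cilia, by 2.81 ± 0.51. Zmynd10, which helps assemble dynein arms in the cytoplasm, stood at 3.88, 7.60 and 6.59 and then at 8.88, 9.50 and 10.75, a rise of 3.68 ± 0.75 (adjusted p = 0.0181). Of these 5 genes, Cfap65 lost its call without leptotene/zygotene replicate 3 (adjusted p over 0.05), Cfap52 without pre-leptotene replicate 1, and Armc3, Ak7 and Zmynd10 without either of those arrays; Zmynd10 also lost it without pre-leptotene replicate 3.

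Intraflagellar transport carries building blocks along a growing cilium. Of its 31 genes tested 2 rose (6.45%, against 3.03% of all genes tested), Ift80, a subunit of the outward train, by 1.34 ± 0.30 (adjusted p = 0.0245), and Dync2li1, a subunit of the motor for the return trip, by 2.00 ± 0.44 (adjusted p = 0.0236). The median change of the 31 was 0.52, 29 were above 0, and 12 had all leptotene/zygotene arrays above all pre-leptotene arrays, against 13.1% of all genes tested. Leaving out pre-leptotene replicate 1 or leptotene/zygotene replicate 3 left 0 calls by limma, as it was without leptotene/zygotene replicate 2 or pre-leptotene replicate 3, while 14 of the 31 had an unadjusted p under 0.05 with all arrays.

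The promoters of the genes that rose held the letters of the MYB and RFX motifs more often than those of the genes tested. RefSeq promoters (build GRCm38.p6, 250 bases before to 50 after the start) were matched for 10597 of the tested genes and 310 of the 397. The MYB letters GGCNGTT, read on both strands, were in 25.5% of the 310 promoters, in 13.9% of the 10597 and in 12% of all 27025 promoters in the table; among the 74 axoneme genes with a promoter the share was 33.8%. The RFX letters GTTGCCA were in 10.0% of the 310, 4.48% of the 10597, 4.46% of all promoters and 17.6% of the axoneme promoters. Within the part from 100 bases before to 50 after the start, 20.0% of the 310 and 7.95% of the 10597 held the MYB letters, and 8.71% and 2.72% the RFX letters.

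Other letters searched the same way were not more frequent. The cyclic AMP response element TGACGTCA was in 2.58% of the 310 promoters and 3.17% of the 10597, the E2F letters TTTGGCGC or TTTCCCGC in 2.90% and 3.04%, and the STRA8 letters CNCCTCAG in 8.71% and 9.33%. Base composition moved with membership too: the median GC content was 56.0% in the 310 promoters and 60.3% in the 10597, and its part in these shares was not tested. A match is a description of letters and shows no binding.

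A few of these promoters are shown to let the letters be seen in place, chosen after their values were seen from genes that rose. Each is the strand of the gene, 5′ to 3′, from 100 bases before the RefSeq start to the base before it, with MYB and RFX letters in capitals. Cfap161 lies at chr7:83794840-83794939 on the minus strand, Armc3 at chr2:19199018-19199117 on the plus strand, Dnah7a at chr1:53706785-53706884 on the minus strand, Ak7 at chr12:105705882-105705981 on the plus strand, Wdr63 at chr3:146108037-146108136 on the minus strand and Mdh1b at chr1:63730319-63730418 on the minus strand, all in GRCm38.p6.
Cfap161: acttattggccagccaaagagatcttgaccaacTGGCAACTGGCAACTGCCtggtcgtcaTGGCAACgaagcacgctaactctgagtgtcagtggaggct
Armc3: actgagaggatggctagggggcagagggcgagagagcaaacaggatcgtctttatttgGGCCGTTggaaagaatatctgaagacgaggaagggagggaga
Dnah7a: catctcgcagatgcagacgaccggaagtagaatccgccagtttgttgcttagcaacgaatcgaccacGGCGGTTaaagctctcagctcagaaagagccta
Ak7: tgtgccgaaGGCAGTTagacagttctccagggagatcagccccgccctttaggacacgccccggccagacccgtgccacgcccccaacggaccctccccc
Wdr63: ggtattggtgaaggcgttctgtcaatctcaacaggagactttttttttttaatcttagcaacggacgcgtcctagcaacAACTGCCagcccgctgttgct
Mdh1b: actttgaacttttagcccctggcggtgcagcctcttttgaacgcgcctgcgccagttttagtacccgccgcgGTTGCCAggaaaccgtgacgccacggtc

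The Cfap161 stretch holds 3 RFX matches and 1 MYB match on the reverse strand, and the MYB match shares letters with an RFX match. Such overlapping matches were found in 3 of the 310 promoters and 13 of the 10597. The level of Cfap161, a protein of the cilium and sperm tail, was 4.30, 6.10 and 5.42 in pre-leptotene and 7.0, 7.59 and 9.84 in leptotene/zygotene, a rise of 2.87 ± 0.68 (adjusted p = 0.0326). Its call was lost without pre-leptotene replicate 1 or 3 or leptotene/zygotene replicate 2 or 3.

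Genes for the factors themselves were among the rises. Of 22 tested genes for transcription factors of later stages 7 rose (31.8%, against 3.03% of all genes tested) and 0 fell, with a median change of 1.28. The count was 0 without pre-leptotene replicate 1 or leptotene/zygotene replicate 3, with 13 of 22 at an unadjusted p under 0.05 in the limma fit to all arrays, and without leptotene/zygotene replicate 2 or pre-leptotene replicate 3 it was 2. Mybl1, the master activator of pachytene transcription, stood at 5.68, 5.91 and 5.05 and then at 6.51, 6.84 and 7.43, a rise of 1.38 ± 0.36 (adjusted p = 0.0471). Rfx2, a driver of cilium and spermatid genes, went from 4.92, 5.75 and 6.57 to 6.82, 8.39 and 9.15, a rise of 2.38 ± 0.51 (adjusted p = 0.0227). The groups did not overlap in either gene.

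Rfx4 was under 4 on all pre-leptotene arrays (2.97, 3.95 and 3.47) and at 5.45, 6.26 and 6.71 afterwards, a fitted rise of 2.68 ± 0.46 (adjusted p = 0.0101), or at least 2.14. Hsf5, a heat shock factor of spermatocytes, rose by 2.89 ± 0.53 (adjusted p = 0.0134) from a mean of 5.90 to 8.79. Gtf2a1l, a germ-cell form of the general factor TFIIA, rose by 3.53 ± 0.83, Zfp541 by 1.70 ± 0.44, and Sox6 by 1.59 ± 0.34, or at least 1.06 against background. Of 15 factors not called, Crem, the activator of spermatid genes, had a change of 2.15 ± 0.69 (adjusted p = 0.118), Sox30 1.17 ± 0.34 (adjusted p = 0.0776), Foxj1, the master factor of motile cilia, 0.10 ± 0.38 and Rfx3 0.44 ± 0.31.

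The piRNA pathway makes the small RNAs that silence transposons and clear transcripts. Of its 23 tested genes 2 rose (8.70%, against 3.03% of all genes tested), Piwil1 and Mybl1, and the median change was 0.39. Piwil1, the PIWI protein loaded with pachytene piRNAs, was at 7.47, 8.14 and 7.60 in pre-leptotene and at 9.91, 10.41 and 9.88 in leptotene/zygotene. The rise was 2.33 ± 0.31 (adjusted p = 0.00466), the SD was 0.36 in pre-leptotene and 0.30 in leptotene/zygotene, and the call held in all 6 fits without 1 array. The fetal and early members Piwil2, with a change of 0.52 ± 0.33, and Piwil4, with 1.09 ± 0.47, did not pass. Neither did Ddx4, the germ-cell helicase, with 0.35 ± 0.26. Without leptotene/zygotene replicates 2 or 3 or pre-leptotene replicates 1 or 3 the count of the list was 1.

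Energy metabolism showed rises in several isozymes that germ cells use, and in the somatic lactate dehydrogenase Ldha. Of 31 genes tested 9 rose (29.0%, against 3.03% of all genes tested), by 1.41 to 2.99, and 0 fell. The median change was 0.51. Cyct, the testis cytochrome c, was the tightest of them, at 9.37, 9.11 and 9.14 and then at 10.73, 10.64 and 10.87, a rise of 1.54 ± 0.25 (adjusted p = 0.00901); its call held in all 6 fits without 1 array. Ldhc, the testis lactate dehydrogenase, went from 10.08, 11.50 and 10.52 to 13.11, 12.80 and 14.19, a rise of 2.67 ± 0.44 (adjusted p = 0.00901). The groups did not overlap in either gene. Ldha, the lactate dehydrogenase of most tissues, went from 7.25, 8.69 and 8.11 to 9.80, 9.95 and 11.57, a rise of 2.43 ± 0.54 (adjusted p = 0.0259), also with no overlap.

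The testis subunits of cytochrome c oxidase rose as well: Cox7b2 by 1.41 ± 0.26, Cox8c by 2.63 ± 0.53 and Cox6b2 by 1.54 ± 0.36. They were the 3 rises among 76 tested genes of the respiratory chain, whose median change was 0.01. That share of 3.95% is near the 3.03% of all genes tested. Slc2a3, a glucose transporter, rose by 2.91 ± 0.62, Ldhal6b by 2.99 ± 0.69 and Pdha2, the testis form of the pyruvate dehydrogenase subunit, by 2.56 ± 0.63. The sperm isozymes of glycolysis did not pass: Pgk2 had a change of 0.78 ± 0.62 and Gapdhs of -0.25 ± 0.59, and both were already at 8.91 or higher on every pre-leptotene array. The energy list held 2 rises without pre-leptotene replicate 1. Without pre-leptotene replicate 3 it held 2, without leptotene/zygotene replicate 3 it held 1 and without leptotene/zygotene replicate 2 it held 5.

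**Figure D3:**
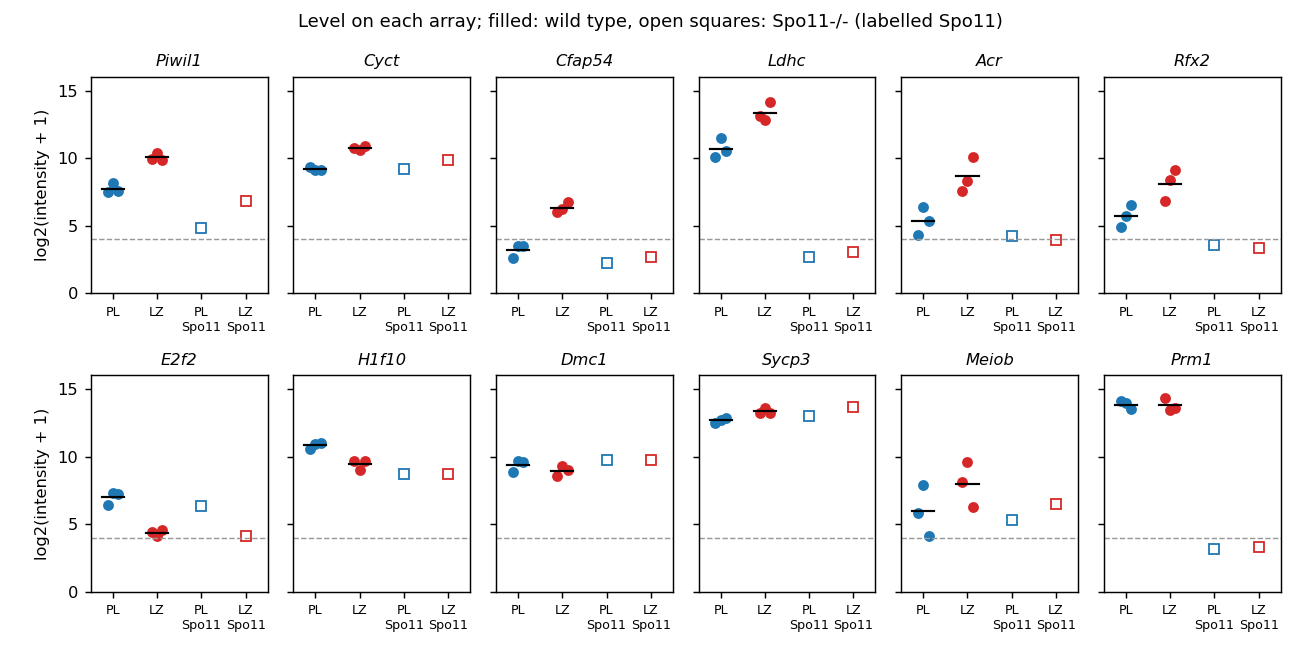
Level on each array, log2(intensity + 1) (y axis), of 12 genes in wild-type pre-leptotene (PL, filled blue) and leptotene/zygotene (LZ, filled red) and on the Spo11-/- arrays of the same fractions (open squares); black bars are means of 3 arrays and the dashed line marks log2 4. Piwil1, Cyct, Cfap54, Ldhc, Acr and Rfx2 separate upward, E2f2 and H1f10 downward, and Dmc1, Sycp3, Meiob and Prm1 were not called.

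Among 27 genes of late meiotic prophase 8 rose (29.6%, against 3.03% of all genes tested) and 0 fell, with a median change of 1.47. The 8 were Ldhc, Spdya, Adam2, Hspa2, Clgn, Pdha2, Spata16 and Ybx2. Spdya, the activator of CDK2 at telomeres, went from 8.0, 8.76 and 7.09 to 9.50, 9.74 and 10.45, a rise of 1.95 ± 0.35 (adjusted p = 0.0122). Hspa2, the spermatocyte HSP70 chaperone, went from 9.47, 10.62 and 10.05 to 11.04, 11.94 and 12.50, a rise of 1.78 ± 0.42 (adjusted p = 0.0318). Brdt, the testis bromodomain reader, had a change of 1.07 ± 0.37 (adjusted p = 0.154), and Ccna1, the male meiotic cyclin, of 2.23 ± 0.73 (adjusted p = 0.125) with leptotene/zygotene replicate 3 at 10.35 against 7.08 and 8.05. The list held 0 rises without pre-leptotene replicate 1 or leptotene/zygotene replicate 3, with 17 of 27 at an unadjusted p under 0.05 in the limma fit to all arrays; without leptotene/zygotene replicate 2 it held 2 and without pre-leptotene replicate 3 it held 1.

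Sperm surface genes gave 5 rises of 18 tested (27.8%, against 3.03% of all genes tested): Adam2, Adam5, Adam32, Adam18 and Clgn. Adam2, a member of the fertilin pair of sperm membrane proteins, had widely spaced pre-leptotene levels of 4.66, 9.22 and 7.15 and leptotene/zygotene levels of 10.11, 11.09 and 11.81, a rise of 3.99 ± 0.85 (adjusted p = 0.0222). Clgn, the chaperone that folds fertilin, rose by 2.37 ± 0.58. Of 25 acrosome genes 3 rose (12%, against 3.03% of all genes tested), with a median change of 1.85 over the list. They were Acr, the acrosomal protease, by 3.33 ± 0.68, Dpy19l2 by 3.01 ± 0.66 and Spata16 by 2.73 ± 0.67. Acr read 4.32, 6.42 and 5.33 before and 7.60, 8.35 and 10.10 after (adjusted p = 0.0184). Without pre-leptotene replicate 1, pre-leptotene replicate 3 or leptotene/zygotene replicate 3 both lists held 0 rises, with 9 of 18 and 19 of 25 at an unadjusted p under 0.05 in the limma fit to all arrays; without pre-leptotene replicate 2 the acrosome list held 11, without leptotene/zygotene replicate 1 it held 7, and without leptotene/zygotene replicate 2 the surface list held 1.

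Of 36 tested genes that pack spermatid chromatin or build the dense parts of the tail 1 rose, Ropn1l (2.78%, against 3.03% of all genes tested). The median change was 0.56, 10 had an unadjusted p under 0.05, and 11 had all leptotene/zygotene arrays above all pre-leptotene arrays, against 13.1% of all genes tested. The list held 5 rises without pre-leptotene replicate 2, 2 without leptotene/zygotene replicate 1, and 0 by limma without any 1 of the other 4 arrays. Prm1, the protamine that replaces histones in spermatids, stood at 14.09, 13.93 and 13.52 in pre-leptotene and at 14.31, 13.45 and 13.60 in leptotene/zygotene, a change of -0.06 ± 0.37. Tnp2, a transition protein, had a change of 0.87 ± 0.51 (adjusted p = 0.585), Odf1 of -0.14 ± 0.58 and Akap4 of -0.11 ± 0.59. These spermatid transcripts were abundant in all early wild-type fractions: Prm1 had a mean of 14.78 in spermatogonia and 14.41 in round spermatids. The median of the 36 was 7.70 to 9.07 over the pre-leptotene arrays, 8.21 to 9.01 over the leptotene/zygotene arrays and 11.68 to 12.66 over the round spermatid arrays. On the Spo11-/- arrays, which come from testes where germ cells stop before the spermatid stage, the median was 2.95 and 3.02 and Prm1 stood at 3.17 and 3.29. The part of this spermatid RNA in the rises was not tested.

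**Figure D4:**
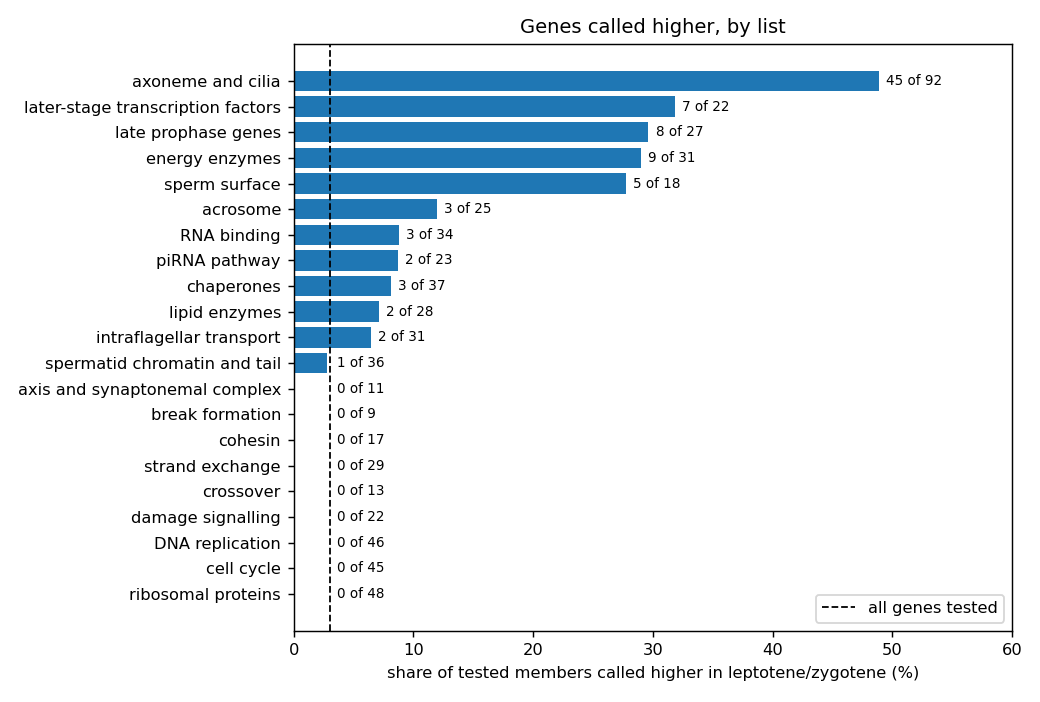
Share of the tested genes of each list that was called higher in leptotene/zygotene (x axis, percent; the counts stand beside the bars), with the share over all genes tested as a dashed line (3.03%). The axoneme list leads with 45 of 92, and the lists of axis, break, cohesin, strand exchange, crossover, damage signalling and replication genes hold 0.

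Among genes that carry out the events of leptotene and zygotene, 6 lists held no call and the list of telomere attachment held 1 of 13, Spdya. Over all genes tested 3.11% were called in either direction, so a count of 0 in lists of this size is near the background. The 6 lists were 9 tested genes of break formation, 11 of the axis and synaptonemal complex, 17 of cohesin, 29 of strand exchange, 13 of crossover formation and 22 of damage signalling. By limma 2, 1, 2, 3, 0 and 1 of them had an unadjusted p under 0.05, against 1612 of all 13087 genes tested. The median changes of the 6 lists were -0.15, 0.20, -0.28, -0.19, -0.08 and -0.21. Sycp1, the transverse filament of the synaptonemal complex, was at 12.07, 12.31 and 12.25 and then at 12.22, 12.46 and 11.92, a change of -0.01 ± 0.30. Sycp3, of the lateral element, went from 12.48, 12.71 and 12.84 to 13.20, 13.56 and 13.25, a change of 0.66 ± 0.22 that did not pass (adjusted p = 0.144) although the groups did not overlap. Dmc1, the meiotic recombinase, had a change of -0.42 ± 0.36 and Hormad1, which marks unpaired axes, of 0.71 ± 0.57.

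Spo11 itself stood at 4.61, 7.03 and 6.23 and then at 7.42, 8.73 and 8.95, a change of 2.41 ± 0.72 (adjusted p = 0.0844), and at 4.8 and 5.21 on the Spo11-/- pre-leptotene and leptotene/zygotene arrays. Whether its probe set lies in the deleted part was not determined here, so this level does not check the genotype. Prdm9, the methyltransferase that places the breaks, stood at 5.58, 5.76 and 5.28 and then at 4.77, 4.76 and 4.49, a change of -0.87 ± 0.37 (adjusted p = 0.305) with no overlap between the groups, a separation downward that 7.20% of all genes tested showed. Meiob, a partner of the recombinases, had a change of 2.06 ± 0.81 (adjusted p = 0.253), with levels of 5.84, 7.89 and 4.10 and of 8.13, 9.62 and 6.25 that overlapped. Stra8, the inducer of meiotic entry, had a change of 0.68 ± 0.84 around a mean of 11.60 in pre-leptotene.

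The 10 lower genes were led by E2f2, an activator of genes for DNA synthesis, which stood at 6.45, 7.31 and 7.20 and then at 4.39, 4.16 and 4.57, a fall by 2.61 on the log2 scale (SE 0.46, adjusted p = 0.0106). H1f10, a linker histone, went from 10.55, 10.91 and 11.04 to 9.66, 9.02 and 9.68, a change of -1.38 ± 0.32 (adjusted p = 0.0315). Megf11 had a fitted change of -2.20, but its leptotene/zygotene arrays all lay under 4, and against that level the change was -1.05 or lower. The other lower genes were Zfp398 (-1.74), Gm4432 (-1.74), Cracr2b (-1.49), Deptor (-1.43), Greb1l (-1.31), Acbd4 (-1.13) and Fzd4 (-1.08), the last a receptor of Wnt signals. In none of the 10 did the groups overlap. None kept its call in all 6 fits without 1 array. Of the 10, 9 kept it without leptotene/zygotene replicate 1, 4 without leptotene/zygotene replicate 2 and 1 without leptotene/zygotene replicate 3. Without pre-leptotene replicate 1 it was kept by 3, without pre-leptotene replicate 2 by 5 and without pre-leptotene replicate 3 by 3. E2f2 lost its call without pre-leptotene replicate 3.

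DNA replication genes were mostly slightly lower, and none was called. Of 46 tested 0 were called by limma, against 3.11% of all genes tested. An unadjusted p under 0.05 was found for 3, against 1612 of all 13087 genes. The median change was -0.28 and 6 were above 0, against 53.3% of all genes tested. In 10 of the 46 all leptotene/zygotene arrays lay below all pre-leptotene arrays, against 7.20% of all genes tested. Tk1, the thymidine kinase of S phase, had the lowest change, from 7.99, 8.33 and 8.21 to 7.06, 7.19 and 7.06, -1.07 ± 0.29 (adjusted p = 0.0527). Pcna, the replication clamp, had a change of -0.34 ± 0.31 from a pre-leptotene mean of 13.84, and Mcm2, of the replicative helicase, of -0.03 ± 0.59. The median level of the list was 10.19 to 10.37 over the pre-leptotene arrays and 10.01 to 10.18 over the leptotene/zygotene arrays.

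The X chromosome, which is silenced in pachytene, held none of the rises. Of 419 X-linked genes tested 0 were called in either direction by limma, against 3.11% of all genes tested. An unadjusted p under 0.05 was found for 20, against 1612 of all 13087 genes. Among these 419 the median change was -0.06, 6.68% had all leptotene/zygotene arrays above all pre-leptotene arrays and 11.9% had them below, against 13.1% and 7.20% of all genes. Wnk3, a kinase gene, had the smallest p of the X-linked genes that were higher, with a change of 1.16 ± 0.31 (adjusted p = 0.0544). The median X-linked level minus the median autosomal level (12586 genes) was -0.35, -0.68 and -0.49 on the pre-leptotene arrays and -0.37, -0.76 and -1.08 on the leptotene/zygotene arrays, a difference of -0.23 that 3 against 3 arrays did not resolve (two-sided exact permutation p = 0.4; the smallest possible is 0.1). Between same-numbered arrays the differences were -0.02, -0.08 and -0.58, all below 0 (two-sided exact permutation p within pairs = 0.25, the smallest that 3 pairs can give). Without leptotene/zygotene replicate 3 the difference was -0.06. On single arrays of later fractions the median X-linked minus autosomal level was -1.42 in early pachytene, -1.72 and -2.38 in mid-pachytene and -3.10 in late pachytene. The Spo11-/- arrays of the 2 fractions compared stood at 0.15 and 0.01.

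**Figure D5:**
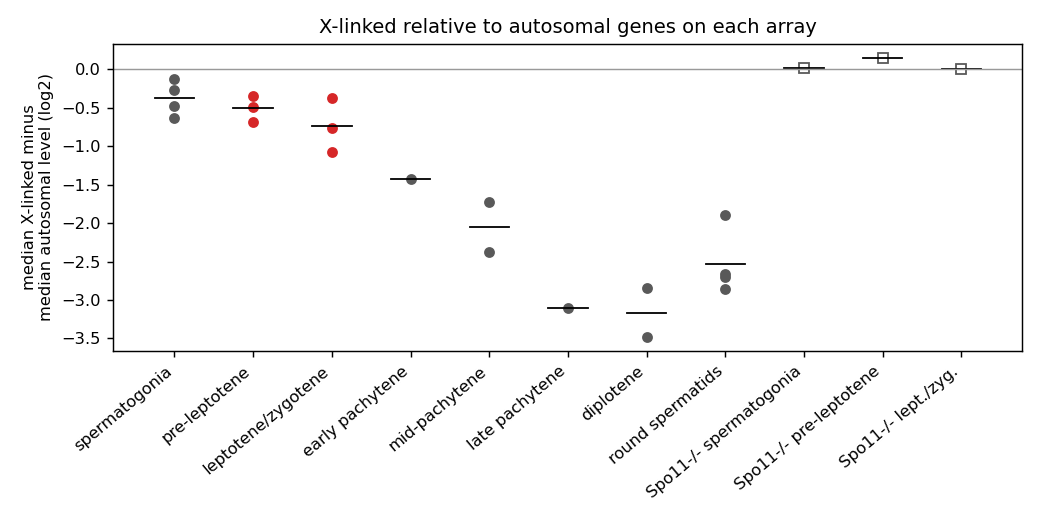
Median X-linked minus median autosomal level, log2 (y axis), on each array by fraction (x axis); red marks the fractions compared, open squares the Spo11-/- arrays, black bars the means. The leptotene/zygotene arrays (-0.37, -0.76 and -1.08) overlap the pre-leptotene arrays (-0.35, -0.68 and -0.49), and all later wild-type arrays lie below them.

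The 397 genes were dim on the Spo11-/- arrays. Their median level was 3.69 on the Spo11-/- pre-leptotene array and 3.80 on the Spo11-/- leptotene/zygotene array, against 7.41 and 7.30 over all genes tested. Of the 397, 190 were under 4 on both. The filter on low values used the wild-type arrays only. With 1 array each there is no replicate check of a change within Spo11-/-. That change was at least 1 for 51 of the 397 (12.8%), against 8.21% of all genes tested, and at most -1 for 44 (11.1%), against 9.74%; the median was 0.07, against 0.09. Of the axoneme genes, 14 of the 45 called and 23 of the 92 tested had a Spo11-/- change of at least 1. Piwil1 went from 4.84 to 6.86 on the Spo11-/- arrays and Cyct from 9.22 to 9.87. Ldhc stood at 2.70 and 3.03, Acr at 4.21 and 3.95, and Rfx2 at 3.61 and 3.36. Of the lower genes, E2f2 went from 6.32 to 4.10 and H1f10 from 8.71 to 8.68.

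The difference between the wild-type and the Spo11-/- change was tested in the same limma fit, in which the single Spo11-/- arrays are assumed to vary like the wild-type ones. The Spo11-/- change has no replicate spread of its own, and the lymphocyte genes below set the Spo11-/- pre-leptotene array apart from every wild-type array of the fractions compared, so the counts hold under that assumption and describe these single arrays. It passed for 272 genes, 2.08% of those tested. For 264 (2.02%) the wild-type change was the more positive and for 8 (0.0611%) the Spo11-/- change. Of the 397 higher genes 24 were among them. All 7 tested genes of T and NK cells passed: Cd3g stood at 11.42 on the Spo11-/- pre-leptotene array, at 2.58 on the Spo11-/- leptotene/zygotene array and at means of 2.55 and 2.49 in wild type. The median of these 7 genes was 10.03 on the Spo11-/- pre-leptotene array and 2.45 to 2.58 on the 6 wild-type arrays, with Thy1 at 11.83, Ccl5 at 10.03 and Cd3d at 10.42 on that Spo11-/- array. In 216 of the 272 the wild-type change was under 1 while the Spo11-/- level fell by at least 1, and 22 of the 24 also fell by at least 1 in Spo11-/-. The other two, Fam181a and 4930444F02Rik, were near background on both Spo11-/- arrays. The part of the lymphocyte RNA in these differences was not tested.

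Markers of other cells were followed on the 6 wild-type arrays as well. Of 14 tested leukocyte genes 0 were called by limma, 2 had an unadjusted p under 0.05 and 0 had the arrays of the fractions apart, with a median change of -0.92. Their median level was 6.24 on pre-leptotene replicate 1 and 3.11 to 3.52 on the other 5 arrays, and 5.67 to 7.91 on the wild-type spermatogonia arrays. Csf1r, a macrophage receptor, stood at 8.68 on pre-leptotene replicate 1 and at 2.38 to 2.92 on the other 5. This is the array without which the count of rises was 21; the part of leukocyte RNA in that count was not tested. Of 11 tested Sertoli cell genes 0 were called by limma (1 at an unadjusted p under 0.05) and 11 of 11 changes were above 0, with a median change of 0.54 and median levels of 5.33 to 5.78 before and 6.11 to 6.18 after; Sox9, Amh, Fshr, Gata1 and Gata4 did not pass the filter. No gene was called among 12 tested stromal, 6 endothelial and 2 red blood cell markers, by limma, with 0 at an unadjusted p under 0.05. Over all genes tested 3.11% were called, so a count of 0 in marker lists of this size is near the background.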

How the data were processed

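The deposited values are Affymetrix probe set intensities on a linear scale (1.48 to 107451 over the 23 arrays), summarised by the authors with GCRMA per the submitters' processing notes; its version and settings, and so whether normalization joined all fractions, are not given in the sources used here. Of 45037 probe sets 34945 carried 1 gene symbol in the platform table, 932 several and 9160 were not listed; 34741 matched RefSeq (GRCm38.p6). Values were analysed as log2(intensity + 1). For the 9010 genes with several probe sets the one with the highest mean was used. Genes at log2 4 or more on at least 2 of the 20 wild-type arrays were tested (13087).

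limma 3.58.1 (R 4.3.3) fitted 1 mean per group over all 23 arrays, with 12 residual and 3.72 prior degrees of freedom and Benjamini-Hochberg adjustment over all genes tested. p-values and SEs rest on the spread between replicate arrays, pooled over the wild-type fractions with replicates. They do not measure the spread of the 6 compared arrays alone, on which limma called 0 genes. Whether the replicate numbers pair the arrays was not settled. Deviations of same-numbered arrays correlated with r of 0.61, 0.32 and 0.45 (numbers 1, 2 and 3) over 26200 probe sets, above every differently numbered pair (-0.42 to -0.04). Over the genes tested r was 0.59, 0.08 and 0.27, and pre-leptotene 2 correlated more with leptotene/zygotene 3 (0.23), and leptotene/zygotene 2 with pre-leptotene 3 (0.10), than with each other. Blocked values are given beside the results they change. Precision is limited by the 3 arrays per fraction. On simulated data 70% of changes of 2 and 89% of changes of 3 (log2) were recovered, with 12 false calls in a set of 13087 genes. The simulation drew normal values independently for each gene and array, with 1 spread per gene over all fractions. On the real arrays many genes moved together: leptotene/zygotene replicate 3 was highest of its group in 356 of the 397. The simulated rates were therefore not shown to hold for this comparison.

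The genes named were the 12 largest non-overlapping changes called in each direction that carry no predicted name, up to 6 called members per list, up to 4 others per list, and a set of genes of general interest. The comparison, the 41 gene lists and the motifs were chosen with earlier results of these data known. Alternatives changed the filter, probe set rule, normalization, pseudocount, variance model, arrays and block. No scanner files were analysed here.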

Additional observations from a re-analysis of the deposited data

Results flagged for a closer look

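The interaction contrast of the limma fit, wild-type against Spo11-/- change from pre-leptotene to leptotene/zygotene, passed for 272 genes. It borrows the wild-type spread for single Spo11-/- arrays, and the Spo11-/- pre-leptotene array stood apart (median T and NK cell level 10.03, against 2.45 to 2.58 on the 6 wild-type arrays), so no difference between the genotypes is established by this count. The lymphocyte genes at high levels on the Spo11-/- pre-leptotene array are part of this count, as given above.

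Among called members of the gene lists, the largest changes named by rule and the genes of general interest, 4 passed it. The T and NK cell genes and 4930444F02Rik, named above, passed it too. Ldha, a lactate dehydrogenase of most tissues, had a wild-type change larger by 8.60 than its Spo11-/- change, with Spo11-/- levels of 11.02 and then 4.85. Phf2, a histone demethylase, differed by 5.33, with Spo11-/- levels of 6.71 and then 3.67. Fam181a differed by 3.49, with Spo11-/- levels of 2.22 and 2.17 near background. Cfap97, of the axoneme list, differed by 3.17, with Spo11-/- levels of 8.65 and then 7.26. Each Spo11-/- level comes from 1 array.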

How the results depend on the processing

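The count of higher genes (397) was 713 with array weights, 159 without the filter, 0 on the 6 arrays alone (2021 at an unadjusted p under 0.05), 607 with the replicate block over 18 arrays and 0 with it over 3 fractions (2748) or over the 6 arrays (2708); leaving out 1 array gave 21 to 612. The count of lower genes (10) was 35, 5, 0, 23, 0 and 0 in the same order, 5 with the stricter filter, and 1 to 11 without 1 array. The genes whose change differs between wild type and Spo11-/- (272) numbered 570 without the filter, 64 with the stricter one, and 229 to 275 without 1 array. The X-linked minus autosomal change (-0.23) kept its sign in every fit run, at -0.41 to -0.06 without 1 array. Every other setting run left the count of higher genes within 1.5 times. It was 298 with a median over probe sets, 365 with quantile normalization, 336 with median centring and 294 with a pseudocount of 16. It was 394 with a trended robust prior, 316 with the stricter filter and 410 with no fold minimum. Apart from the stricter filter, these settings gave 8 to 12 lower genes. Of the 397 genes, 3 had a negative change with the median over probe sets and 0 in the other fits. In the fits without 1 array the lack of overlap fixed that sign for 394 of them. Of 104 with several detected probe sets, 96 had all of them change in 1 direction. Among genes past the test without a fold minimum the promoter share with MYB letters was 24.8% and with RFX letters 9.60%. Signal near background limits the 45 rises whose pre-leptotene arrays all lay under log2 4.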

Other observations

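Cyp17a1, an enzyme of steroid synthesis known from Leydig cells, stood at 2.34, 4.39 and 5.21 in pre-leptotene and at 7.36, 7.39 and 7.42 in leptotene/zygotene, a rise of 3.41 ± 0.69 (limma adjusted p = 0.0181). The mean of Cyp17a1 was 6.94 in mid-pachytene and 6.73 in round spermatids. It was the 1 call among 6 Leydig genes tested (16.7%, against 3.03% of all genes tested). Of the 6 changes 5 were above 0, with a median of 0.51. In 3 of the 6 all leptotene/zygotene arrays lay above all pre-leptotene arrays, against 13.1% of all genes tested. The median level of the 6 was 3.20 to 4.33 over the pre-leptotene arrays and 4.56 to 5.48 over the leptotene/zygotene arrays. Star had the lowest change, -0.02 ± 0.58, and Nr5a1 had 0.03 ± 0.36. Kdm4d, a demethylase of histone H3 lysine 9, rose by 2.71 ± 0.51 (adjusted p = 0.0136), and Id4, a marker of spermatogonial stem cells, by 2.22 ± 0.58 (adjusted p = 0.0485) on the way to a mean of 12.07 in mid-pachytene. These 3 calls were lost without pre-leptotene replicate 1 or leptotene/zygotene replicate 3. Kdm4d and Id4 also lost theirs without pre-leptotene replicate 3, and Id4 without pre-leptotene replicate 2 or leptotene/zygotene replicate 2.

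Some genes had their highest level in leptotene/zygotene. Of the genes tested 192 had a leptotene/zygotene mean at least 0.5 above that of every other wild-type fraction and 12 at least 1 above; 1 of the 192, Nptx1, was among the 397. The median leptotene/zygotene level of the 192 was 6.60, against 7.67 over all genes tested, and they included bright genes such as Tubb5, a tubulin, at a mean of 12.53 and Stra8 at 12.28. Mnd1, a partner of the strand exchange proteins, was one of the dim ones, at 4.03, 3.66 and 3.63 in pre-leptotene, at 5.22, 5.59 and 4.29 in leptotene/zygotene (change 1.27 ± 0.41, adjusted p = 0.121) and at means of 4.08 in mid-pachytene and 2.89 in round spermatids. These genes were selected for their peak, so their levels are given as a description.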
